A study of Homo sapiens with 3 samples.

Results

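The windows of RN7SL1 and RN7SK, the genes of the 7SL and 7SK RNAs, were the least uridylated of the listed miscellaneous RNA (misc_RNA) windows. The 6 listed windows named as pseudogenes of either RNA were mostly uridylated. The study kept windows by their uridylated fraction. Applied to the summed counts of these 6, such a rule passes only fractions above both members. Selection by it would therefore fix the direction of this contrast. Members were the rows of the deposited table with the gene name RN7SL1 or RN7SK, which gave 2 of 1533 windows. A further 6 rows had a name that starts with RN7S, and all 8 belonged to the 61 windows of the misc_RNA class. The other 53 misc_RNA windows lay in vault RNAs, Y RNAs, RNase P RNA and RNase MRP RNA.

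The 3 libraries formed 1 group of HEK293 cells, a human embryonic kidney line, that overexpressed DIS3L2 D391N. DIS3L2 is an exoribonuclease that degrades RNAs with a 3′ tail of untemplated uridines, and the D391N mutant is catalytically inactive. According to the study's methods the mutant was stably integrated in the HEK293T-Rex line, so the protein is an expressed transgene and the endogenous enzyme was not described as removed. RNA crosslinked to the protein was recovered by CLIP (crosslinking and immunoprecipitation), and neither a control protein nor untransfected cells were analysed here. The genome (GRCh37/hg19) was divided into windows of 50 nt, and for each listed window the table gives unique reads, which map to 1 place, and among them uridylated (U+) reads, which end in an untemplated run of at least 4 T. Both counts are sums over the 3 libraries. The U+ fraction is the U+ reads divided by the unique reads. Its brackets hold 95% Wilson intervals, which cover counting error only, because PCR copies of 1 molecule are not independent and no spread between libraries is known. The table held 2686158 unique and 769021 U+ reads.

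7SL RNA is the scaffold of the signal recognition particle, the ribonucleoprotein that binds signal peptides as they leave the ribosome and brings the ribosome to the endoplasmic reticulum. 7SK RNA holds the elongation factor P-TEFb (CDK9 with a T-type cyclin) in an inactive complex with HEXIM proteins, and is capped by MEPCE and bound at its 3′ end by LARP7. RNA polymerase III makes both RNAs and stops at an encoded run of T, so each new transcript ends in a few uridines that are templated. Both genes have given rise to many pseudogenes by retrotransposition.

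The windows of both members end on an encoded run of T, and that of RN7SK is shown with this run in capitals. Sequences are of GRCh37 and run 5′ to 3′ on the strand of the RNA. The RN7SL1 window (ENSG00000258486) lies on the plus strand of chromosome 14, and the RN7SK window (ENSG00000202198) on the plus strand at chr6:52860700-52860749.
RN7SK: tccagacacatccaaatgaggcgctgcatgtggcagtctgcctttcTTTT

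Capitals in the next 2 sequences mark the longest stretch identical to RN7SL1 in windows of 7SL pseudogenes. These 2 windows are shown because, as whole windows, they cover overlapping but different parts of the inside of the RNA. RN7SL480P lies at chr1:150184000-150184049 on the plus strand and RN7SL712P at chrX:115108950-115108999 on the minus strand. The windows of RN7SL364P and RN7SL494P lie on the minus strands of chromosomes 19 and 15.
RN7SL480P: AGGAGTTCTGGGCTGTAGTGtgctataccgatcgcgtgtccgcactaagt
RN7SL712P: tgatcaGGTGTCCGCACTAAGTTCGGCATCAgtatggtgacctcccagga

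The window of the 7SK pseudogene RN7SKP118 lies at chr16:67355550-67355599 on the minus strand, and its capitals mark the longest stretch identical to RN7SK.
RN7SKP118: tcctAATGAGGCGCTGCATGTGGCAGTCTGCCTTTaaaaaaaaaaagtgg

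The window of RN7SL529P lies at chr11:118865300-118865349 on the plus strand and holds no stretch that aligned to 7SL.
RN7SL529P: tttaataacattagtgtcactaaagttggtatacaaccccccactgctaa

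RN7SL1 had 51465 unique reads, of which 370 were U+ and 51095 were not. Its U+ fraction was 0.719% (0.65 to 0.796%), the lowest of the 61 misc_RNA windows and the lowest of all 1533 windows. The next lowest window of the table, in the U8 small nucleolar RNA gene SNORD118, had 97 U+ reads among 6329, or 1.53% (1.26 to 1.87%), and its interval did not meet that of RN7SL1. Another, deeper SNORD118 window had 20012 U+ reads among 46846, or 42.7%, so the low value is not that of the whole gene. RN7SL1 ranked 4th of the misc_RNA class and 6th of the table in unique reads, but 15th and 127th in U+ reads. It held 4.05% of the unique reads of the class and 0.12% of its U+ reads.

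RN7SK had 1673 unique reads, of which 280 were U+ and 1393 were not. Its U+ fraction was 16.7% (15.0 to 18.6%), the 2nd lowest of the misc_RNA class and the 16th lowest of the table. RN7SK ranked 8th of the class in unique reads and 16th in U+ reads, so its place fell less between the counts than that of RN7SL1. It held 0.132% of the unique reads of the class and 0.0908% of its U+ reads.

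The U+ fraction of RN7SK was higher than that of RN7SL1 by 16.0 percentage points (95% Newcombe interval 14.3 to 17.9), or 23.3-fold, with p = 1.56e-244 by a two-sided Fisher's exact test on the reads. The test compares 2 windows of the pooled libraries, not conditions. It takes every read as independent, which PCR copies are not, and holds no spread between libraries. Its p-value and the interval therefore cover counting error only. The numbers of U+ reads, 370 and 280, were close, and the difference in fraction came with the 51095 and 1393 reads that were not U+.

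**Figure D1:**
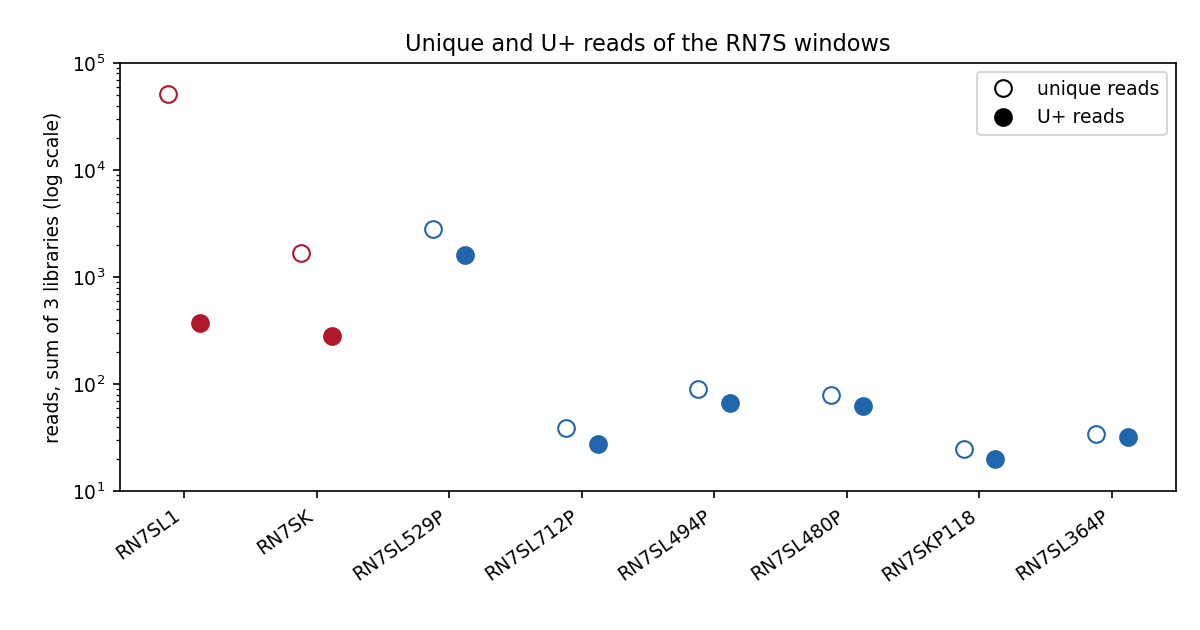
Unique reads (open circles) and U+ reads (filled circles) of the 8 windows with RN7S names, as sums of 3 libraries on a log axis, with RN7SL1 and RN7SK in red and pseudogenes in blue. The circles lie farthest apart for RN7SL1, with 51465 unique and 370 U+ reads, and nearly meet for RN7SL364P, with 34 and 32.

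The 6 pseudogene windows had U+ fractions from 57.2 to 94.1%, with a median of 77.1%, and none lay below RN7SK. Of these, 5 are 7SL pseudogenes and 1 is a 7SK pseudogene. RN7SL529P was by far the deepest, with 1598 U+ reads among 2793, or 57.2% (55.4 to 59.0%). RN7SL712P had 28 among 39, or 71.8% (56.2 to 83.5%). RN7SL494P had 67 among 90, or 74.4% (64.6 to 82.3%).

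The other 3 pseudogene windows were at the upper end. RN7SL480P had 63 U+ reads among 79, or 79.7% (69.6 to 87.1%). RN7SKP118 had 20 among 25, or 80.0% (60.9 to 91.1%). RN7SL364P had 32 among 34, or 94.1% (80.9 to 98.4%). The interval of RN7SL529P lay below those of RN7SL494P, RN7SL480P, RN7SKP118 and RN7SL364P and overlapped that of RN7SL712P. Differences among the pseudogene windows were not tested. The 5 windows other than RN7SL529P had 210 U+ reads among 267 when summed, or 78.7% (73.3 to 83.1%).

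The 5 pseudogene windows that hold sequence of their parent RNA had higher U+ fractions than the window of the parent. RN7SL712P exceeded RN7SL1 by 71.1 points (55.5 to 82.7), RN7SL494P by 73.7 points (63.8 to 81.6), RN7SL480P by 79.0 points (68.9 to 86.4) and RN7SL364P by 93.4 points (80.2 to 97.7). RN7SKP118 exceeded RN7SK by 63.3 points (44.0 to 74.5). Only RN7SL364P and RN7SKP118 have their windows at the 3′ end, where the parent window lies. Those of RN7SL712P, RN7SL494P and RN7SL480P lie inside 7SL, where no RN7SL1 window was listed. Their differences therefore set unlike parts of the RNA against each other. RN7SL529P lay 56.5 points (54.7 to 58.3) above RN7SL1, but its window holds no 7SL sequence, so RN7SL1 is its parent by name only. These differences are given as a description only. Fisher's exact tests were also run on these pairs, but their p-values are left out for the following reason. At the depths of the 6 windows a posterior rule like the study's, applied to the summed counts, passes only fractions of at least 26.4 to 40.0%, which already lie above both members, so selection by that rule would fix the direction.

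In number of U+ reads the order was different. RN7SL1 and RN7SK each had more U+ reads than any of the 5 shallow pseudogene windows, whose counts ran from 20 to 67, and fewer than the 1598 of RN7SL529P. Under that rule 25 reads need at least 10 U+ reads (40.0%) and 90 reads need at least 30 (33.3%), so pseudogene windows with low fractions would not be seen. The 15 remaining misc_RNA windows with at most 90 unique reads had a median of 80.5% (41.1 to 98.2%), near the 79.7% median of the 5 shallow pseudogene windows.

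**Figure D2:**
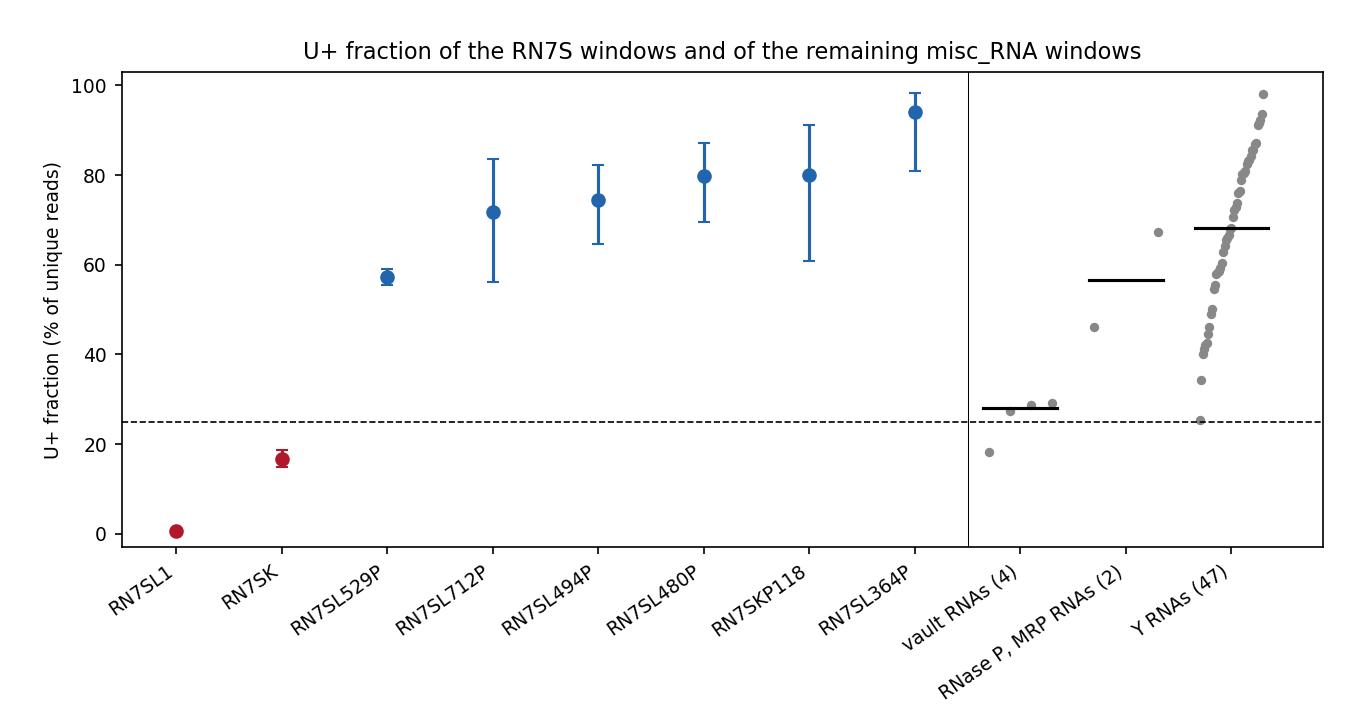
U+ fraction of the 8 windows with RN7S names with 95% Wilson intervals (left), and of the 53 remaining misc_RNA windows as 1 point each with a bar at the median (right, window number in brackets); the dashed line is at 25%. RN7SL1 and RN7SK lie below the line at 0.719 and 16.7%, and all 6 pseudogene windows lie above 50%.

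The remaining 53 misc_RNA windows had a median U+ fraction of 66.7% (18.3 to 98.2%), and none lay below RN7SK. Of these, 35 lay within the range of the pseudogene windows. The 47 Y RNA windows had a median of 68.1%, the 4 vault RNA windows 28.0%, and RNase MRP and RNase P RNAs had 46.2 and 67.2%. In U+ fraction the members therefore lay nearer to the vault RNAs than to the Y RNAs. The vault RNA windows had 42740 to 413061 unique reads, a range that holds RN7SL1 (51465) but lies far above RN7SK (1673).

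Genes near each member were found by a fixed rule, the 2 nearest misc_RNA genes in U+ fraction and in unique reads. In U+ fraction RN7SK was followed by VTRNA1-2, a vault RNA, with 75430 U+ reads among 413061, or 18.3% (18.1 to 18.4%), an interval within that of RN7SK. A Y RNA on chromosome 14 came next at 25.3% (17.5 to 35.1%). RN7SL1 had RN7SK and VTRNA1-2 as its nearest, 16.0 and 17.5 points higher.

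The misc_RNA windows nearest to the members in unique reads had higher fractions. RN7SL1 was nearest in unique reads to VTRNA1-3, with 42740 unique reads and a U+ fraction of 29.1% (28.6 to 29.5%), and then to a VTRNA1-1 window, which at 363024 unique reads was much deeper, with 28.7%. RN7SK was nearest to RPPH1, the RNA of RNase P, with 1031 U+ reads among 1535, or 67.2% (64.8 to 69.5%), and to a Y RNA on chromosome 17 with 873 among 1324, or 65.9% (63.3 to 68.4%). The 5 remaining misc_RNA windows with 1000 to 5000 unique reads ran from 46.2 to 80.9%. Over the whole table, 5 windows had more unique reads than RN7SL1, with U+ fractions from 10.9% for the U2 small nuclear RNA gene RNU2-2P to 49.9% for the 5S rRNA pseudogene RNA5SP202.

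**Figure D3:**
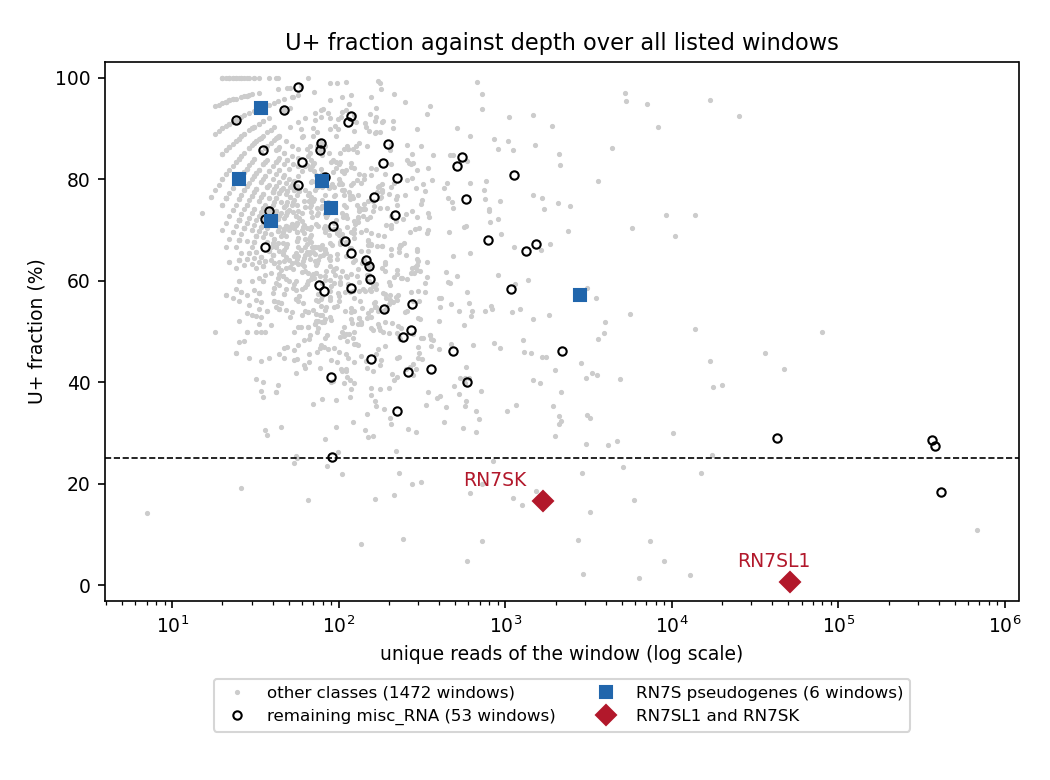
U+ fraction against unique reads (log axis) for the 1533 listed windows, with other classes in grey, remaining misc_RNA as open circles, RN7S pseudogenes as blue squares and both members as red diamonds; the dashed line is at 25%. RN7SL1, with 51465 unique reads, is the lowest point of the plot, and shallow windows sit mostly high.

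The study's stated rule kept windows with a posterior probability of at least 0.95 that the uridylation frequency exceeded 0.25, multiplied over the libraries. With a uniform prior on the summed counts, 6 of the 8 windows with RN7S names passed this rule and both members did not. The posterior was 2.15e-16 for RN7SK and still lower for RN7SL1. Of all listed windows 96.8% passed, and in the misc_RNA class 93.4%. A summed U+ fraction below 25%, as both members had, was found in 2.35% of all windows and in 4.92% of the misc_RNA windows, where the only other such window was that of VTRNA1-2. No count with a U+ fraction of 25% or less reached a posterior above 0.633, among depths up to 60000 reads. A product of 0.95 over 3 libraries therefore needs over 25% in each library and in their sum, so the summed counts listed for RN7SL1 and RN7SK cannot be the counts on which the stated rule selected them. The reason was not tested.

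Both member windows held the 3′ end of their RNA. RN7SK is annotated in GENCODE release 44 as 331 nt from 52860418 to 52860748, with no intron, and the window covered its last 49 nt and ended 1 nt past its end. Another model of RN7SK in the same release ends 3 nt before the window's end. The RN7SL1 model of the table was not found in that annotation, so its span was taken from the match to its twin gene RN7SL2, which gave 297 nt. The RN7SL1 window covered the last 45 nt and 5 nt beyond. RN7SL1 lies opposite an intron of RPS29, a gene of the small ribosomal subunit, and RN7SK overlaps no other gene.

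Each of the 2 RNAs is overlapped by 7 windows of the 50 nt grid, and in each only this last window was listed. Nothing is known here of the reads over the other 6. The study itself reports U+ reads past the mature 3′ end of 7SL, which it takes as a sign of uridylated extended forms. It used the mature region of 7SL as a loading control, whose level did not change between its cell lines. The summed counts of the window do not separate mature from extended forms. The window's starts may be counted from 0 or 1, so all positions can be off by 1 nt.

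**Figure D4:**
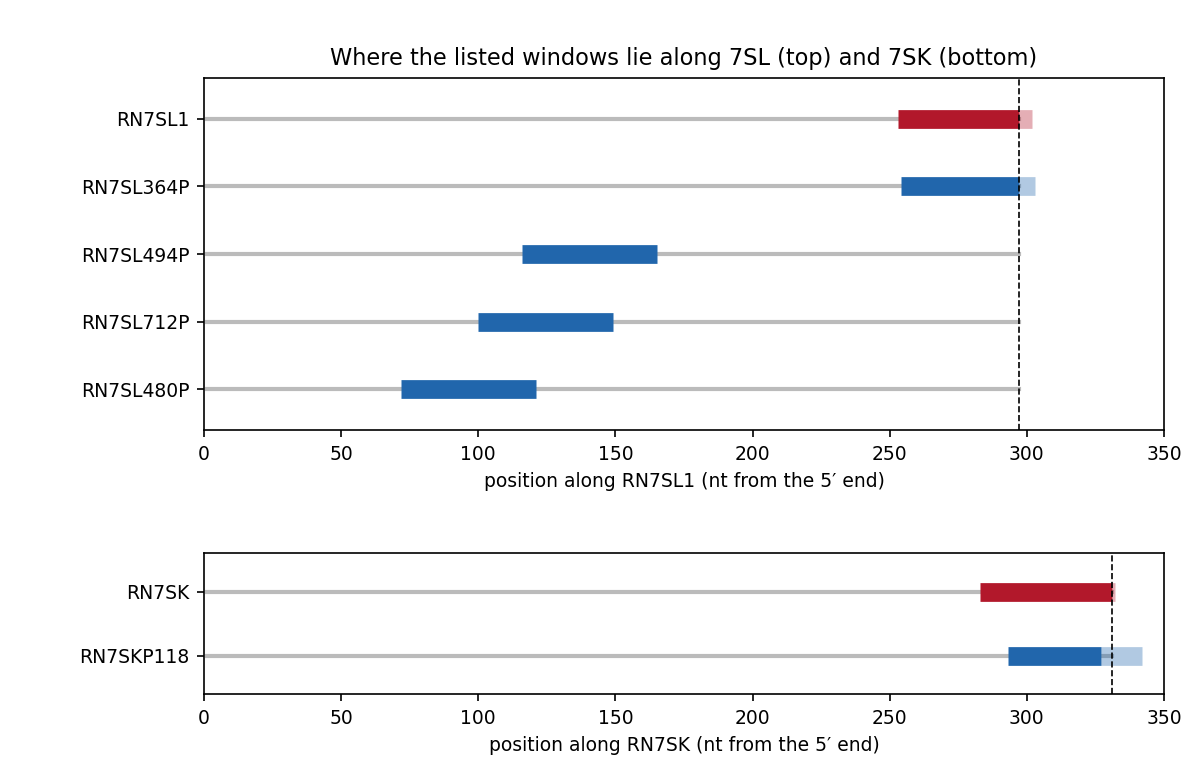
Position of the listed windows (thick bars) along 7SL, top, and 7SK, bottom, in nt from the 5′ end of the RNA, with members in red and pseudogenes in blue; pale bars are window bases that do not align to the RNA, and the dashed line is its 3′ end. RN7SL1, RN7SL364P, RN7SK and RN7SKP118 lie at the 3′ end, RN7SL480P, RN7SL712P and RN7SL494P lie inside 7SL, and RN7SL529P is not drawn because its window does not align.

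The pseudogene windows did not share 1 place in the RNA. Those of RN7SL364P and RN7SKP118 lay at the 3′ end, as in the parents, and ran 6 and 11 nt past the annotated end. RN7SL364P aligned to 7SL positions 254 to 297 with 40 identical bases, and its longest identical stretch was 34 nt. RN7SKP118 aligned to 7SK positions 293 to 327 with 34 identical bases, and its longest identical stretch was 31 nt. Where the parents have the T run, RN7SL364P and RN7SKP118 have runs of 4 and 11 A, and neither window ends in T.

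The windows of RN7SL480P, RN7SL712P and RN7SL494P lay inside the RNA, at 7SL positions 72 to 121, 100 to 149 and 116 to 165, so they overlap each other in the parent. They had 47, 46 and 46 of 50 bases identical to RN7SL1. Their ends lay 172, 149 and 122 nt before the annotated 3′ end.

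By annotation, RN7SL494P lies in an intron of HDC, the histidine decarboxylase gene, RN7SL364P in an intron of the kinase gene PRKD2 and RN7SKP118 in an intron of KCTD19, each on the strand of the host gene. RN7SL480P, RN7SL529P and RN7SL712P overlap no other gene. The midpoint of the RN7SKP118 window lay 238.5 nt from a KCTD19 start, and those of RN7SL494P and RN7SL364P lay 18651.5 and 25205.5 nt from the nearest protein-coding start on their strand.

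RN7SL529P, the deepest pseudogene, was a window of another RNA by sequence. None of its 50 bases aligned to 7SL. The annotated RN7SL529P gene nevertheless ends within the window, which runs 6 nt past that end. The locus matched 7SL positions 1 to 227 up to 30 nt before the window and positions 212 to 295 from 34 nt after it, with 72 of 84 bases identical in the second match, so the window sits inside a 7SL pseudogene that other sequence interrupts. That sequence is Y4 RNA, 1 of the Y RNAs that bind the Ro60 protein. From its 2nd base, 49 nt of the window matched RNY4 at chr7:148660438-148660486 on the plus strand with 1 difference, A5T, in which the window's base stands first and positions count from the window's first base. The match ended 16 nt before the end of the 96 nt Y4 RNA. The RNY4 stretch is printed with the differing base in capitals.
RNY4: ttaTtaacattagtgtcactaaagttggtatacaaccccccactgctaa

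The RN7SL529P window matched 9 other places of the genome nearly base for base (at least 45 nt with at most 2 differences), and 4 of these places overlapped, at least in part, other listed windows. RNY4P25 had 223 U+ reads among 483, or 46.2% (41.8 to 50.6%). RNY4P2 had 74 among 109, or 67.9% (58.6 to 75.9%), and a Y RNA on chromosome 2 had 421 among 510, or 82.5% (79.0 to 85.6%). A window on chromosome 17 that the table assigns to ATAD5 had 137 among 174, or 78.7% (72.1 to 84.2%). The 57.2% of RN7SL529P lay inside this span, and inside the range of the 12 rows named as RNY4 pseudogenes (42.1 to 91.2%, median 75.9%).

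Without RN7SL529P, the 4 windows that hold 7SL pseudogene sequence had 190 U+ reads among 242, or 78.5% (72.9 to 83.2%).

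The members have near-identical copies too, which bears on where a short read can be placed. The RN7SL1 window had none without a difference, 6 with at most 1 and 55 with at most 2. The nearest was RN7SL2, on the minus strand of chromosome 14, which differs from the RN7SL1 window at 1 base. Over the whole RNA 293 of 297 bases were identical. A read that does not cover a differing base maps to both genes and is not counted as unique.

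RN7SL2 was not listed, and neither were 7SL copies at the other places that match the RN7SL1 window, among them the 3′ end of RN7SL712P, which is listed only at its internal window. RN7SK had 0 identical copies, 3 with at most 1 difference and 6 with at most 2, among them places in the 7SK pseudogenes RN7SKP292 and RN7SKP48, which were not listed. RN7SL480P, RN7SL494P, RN7SL712P, RN7SL364P and RN7SKP118 had none with at most 2 differences. Alu elements, the commonest retrotransposons of the human genome, derive from the ends of 7SL. With at most 5 differences the windows at the 3′ end of 7SL had the most copies, 2901 for RN7SL1 and 5296 for RN7SL364P, against 11 for RN7SK, 2 for RN7SKP118 and 27, 49 and 68 for the internal windows of RN7SL480P, RN7SL494P and RN7SL712P. The annotation holds 1142 genes with RN7S names (848 with RN7SL and 294 with RN7SK), and 7 of the 8 listed genes are among them. How far the copies move the counts of RN7SL1 and RN7SK was not tested.

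Both member windows end in the 4 T letters TTTT, searched on the strand of the RNA only. Anywhere in the window, TTTT was found in 2 of the 8 windows with RN7S names, in 22.6% of the remaining misc_RNA windows and in 8.61% of all windows. At the very end of the window it was found in 11 of 1533 windows (0.718%) and in 3 of the misc_RNA class. The third, in a Y RNA, had 124 U+ reads among 162, or 76.5%. Windows lie on a fixed grid of 50 nt, so whether a run falls on the last bases of a window depends on the grid. With 50 nt past the window included, runs of at least 4 T were found at RN7SL1, RN7SK, RN7SL529P and RN7SKP118. By the study's methods, reads were called U+ by T beyond what the genome encodes. Its discussion states, however, that added uridines could not be told from encoded terminal ones in polymerase III transcripts. It adds that the uridine stretches of such transcripts seldom went past the encoded run. The part of the encoded T run in the fractions of RN7SL1 and RN7SK was not tested.

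Predicted folding did not set the members apart from their pseudogenes. The minimum free energy of the window alone was -11.6 kcal/mol for RN7SL1 and -12.6 kcal/mol for RN7SK. The 8 windows with RN7S names ran from -13.6 to -4.5 kcal/mol, with the weakest fold at RN7SL529P, against a median of -3.8 kcal/mol for the remaining misc_RNA windows and of -17.3 kcal/mol for all windows. The GC content was 56% for RN7SL1 and 50% for RN7SK, against medians of 38% and 72%.

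Of 16 genes for proteins of the signal recognition particle, its receptor and the 7SK complex, 2 had a listed window (12.5%), against 5.11% over all protein-coding genes. These were SRPR (now SRPRA), the receptor subunit that docks the signal recognition particle at the endoplasmic reticulum, and MEPCE, the enzyme that caps 7SK. SRPR had 40 U+ reads among 82, or 48.8% (38.3 to 59.4%), in a window at chr11:126138700-126138749 on the minus strand. MEPCE had 270 among 452, or 59.7% (55.1 to 64.2%), at chr7:100026400-100026449 on the plus strand.

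Both partner windows lay at the start of the gene, with midpoints 65.5 and 11.5 nt past the annotated start. The study reports U+ fragments near the starts of many mRNAs, so this place is not particular to the partners. The share of all mRNA windows at a start was not computed. Both partner fractions were above those of RN7SL1 and RN7SK, as were nearly all listed fractions. RN7SL1 was the lowest and RN7SK the 16th lowest of 1533 windows. No window was listed for the signal recognition particle proteins SRP9, SRP14, SRP19, SRP54, SRP68 and SRP72, the receptor subunit SRPRB, the P-TEFb subunits CDK9, CCNT1 and CCNT2, the P-TEFb inhibitors HEXIM1 and HEXIM2, the 7SK-binding LARP7 or SSB, the La protein that binds the terminal uridines of polymerase III transcripts. A gene without a listed window may have had few reads or a low U+ fraction, which the table does not tell apart.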

How the data were processed

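The authors mapped CLIP reads of 3 D391N libraries to GRCh37/hg19 with Segemehl, trimmed T tails of unmapped reads and mapped them again. They called unique reads with at least 4 untemplated 3′ T uridylated, allowing 1 mismatch. Windows of 50 nt with under 20 reads were dropped and the rest chosen by a posterior. The submitters' processing notes also name Subread. The deposited values are raw counts, summed over libraries, so depth and spread per library are unknown. Several windows hold fewer reads or lower fractions than these rules state.

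Fractions, Wilson, Newcombe and Clopper-Pearson intervals and two-sided Fisher's exact tests used scipy 1.17.1 and pandas 2.3.3, tested on simulated data. Sequence came from GRCh37 and genes from GENCODE release 44 lifted to it, which held 7 of the 8 RN7S genes. Copies were found with blastn 2.17.0, alignments made with Biopython 1.88 (match 2, mismatch -3, gap -5 and -2), and folds predicted with RNAfold 2.7.2. The members, lists and tests were chosen with earlier results of these data known. Named were all RN7S rows, the 2 nearest misc_RNA genes by 2 measures and a list of partner genes. SNORD118, RNU2-2P, RNA5SP202 and the Y4 copies were named after their values were seen. The sequences of some windows are not reported here.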

Additional observations from a re-analysis of the deposited data

How the results depend on the processing

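RN7SL1 and RN7SK stayed lowest and 2nd lowest of the misc_RNA class without the vault RNA windows, with at least 100 unique reads, with 1 window per gene and without RN7SL529P. Clopper-Pearson in place of Wilson intervals, posterior means in place of raw fractions, a frequency of 0.5 or a posterior of 0.99, starts counted from 0 and the other RN7SK model left each call as it was. The median of the remaining misc_RNA windows, 66.7%, became 67.9% without vault RNAs, 61.7% with at least 100 unique reads and 66.9% with 1 window per gene. With at least 100 unique reads RN7SL529P was the only pseudogene window, so the pseudogene median fell from 77.1 to 57.2% and its difference from the remaining windows turned from 10.4 to -4.44 points. Without RN7SL529P, an alternative chosen after seeing the data, the pseudogene median was 79.7% and the difference 13.1 points. Windows with a near-identical copy numbered 3 of 8 with at most 2 differences, 0 with none and 8 with at most 5. Windows with a T run numbered 4 with at least 4 T and 2 with at least 6 T. Leaving out a library was not run because the counts are pooled. No paired analysis was possible because the samples form 1 group. Depth limits the shallow windows most: with 25 reads the interval of RN7SKP118 ran from 60.9 to 91.1%.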
